A study of Mus musculus with 6 samples.

Results

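The expression of 10 genes of the cartilage extracellular matrix is described in sorted limb-bone stromal cells with and without Zeb1: Acan, Hapln1, Comp, Matn1, Matn2, Matn3, Matn4, Ucma, Snorc and Cnmd. They were taken by gene name, as 10 of the 54532 genes of the deposited table, and all 10 were found. The cells came from compact bone of untreated mice, were grown out of collagenase-digested femur and tibia chips, and were sorted for the fluorescent reporter. Every mouse carried Prx1-Cre, which acts in limb bud mesenchyme and its descendants, and the ROSA-YFP reporter. Cells called WT had both Zeb1 alleles intact (Zeb1wt/wt). Cells called Zeb1Prx1 came from Zeb1fl/fl mice, whose floxed alleles the Cre deletes. Each genotype had 3 libraries, and the sources used here give no ages. The labels do not say whether libraries came from separate mice, and every p-value here is set against a spread between libraries that may be technical only.

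Cartilage resists compression because aggrecan, a very large proteoglycan, is held in a collagen II network by binding to hyaluronan, a bond that link protein stabilises. Matrilins and COMP are multi-subunit adaptors that tie these networks together, and chondrocytes also make smaller cartilage-specific proteins such as UCMA, SNORC and chondromodulin. Several of these genes belong to the chondrocyte programme that Sox9 drives, and osteoblasts and macrophages express little of them.

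Libraries held 14724357 to 18354894 assigned fragments. Zeb1 had 6.61, 10.3 and 7.12 FPKM (fragments per kilobase of gene, scaled to library depth) in WT replicates 1, 2 and 3 and 1.92, 1.59 and 2.84 in Zeb1Prx1, a log2 change of -1.53 (SE 0.22, limma adjusted p = 0.229). No library went against its label, though this value covers the whole gene and not the deleted part alone. Prrx1, whose enhancer drives Prx1-Cre, had 18.1 to 30.5 FPKM. Transcripts of 15 macrophage markers were abundant in every sorted library, with summed FPKM of 13136 to 15973 in WT and 10812 to 21848 in Zeb1Prx1 and 0 of them at 0. Lyz2 made up most of each sum. Zeb1Prx1 replicate 2 stood apart with the highest FPKM sum, 372566 against 278987 to 312038 in the other 5. In such bulk libraries, fewer cells of a type and less RNA per cell cannot be told apart.

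All 10 genes had a higher mean in Zeb1Prx1, and for 9 of them, all but Matn2, the highest of the 6 libraries was Zeb1Prx1 replicate 3. Among the 27230 genes above 0 in any library, 18.9% were highest in that library. For 4 genes, Acan, Ucma, Snorc and Cnmd, every Zeb1Prx1 library lay above every WT library, while 8.01% of the 27230 genes did so. The other 6 overlapped between genotypes. Without WT replicate 3 the count was 7, adding Matn2, Matn3 and Matn4, where 11.0% of the 27230 genes did so. None passed the test across all genes: limma on log2(FPKM + 1) called 0 of the 6 members it tested and 0 of all 12534 tested genes (0%), with Benjamini-Hochberg adjustment at 0.05. At an unadjusted p under 0.05 it counted 1 of these 6 as higher, Acan, against 8.15% of all tested genes, and voom on recovered fragments called 0 of these 6 and counted 0 of them. In either direction and over all tested genes, limma counted 1897 at an unadjusted p under 0.05, and voom called 0 and counted 1935.

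**Figure D1:**
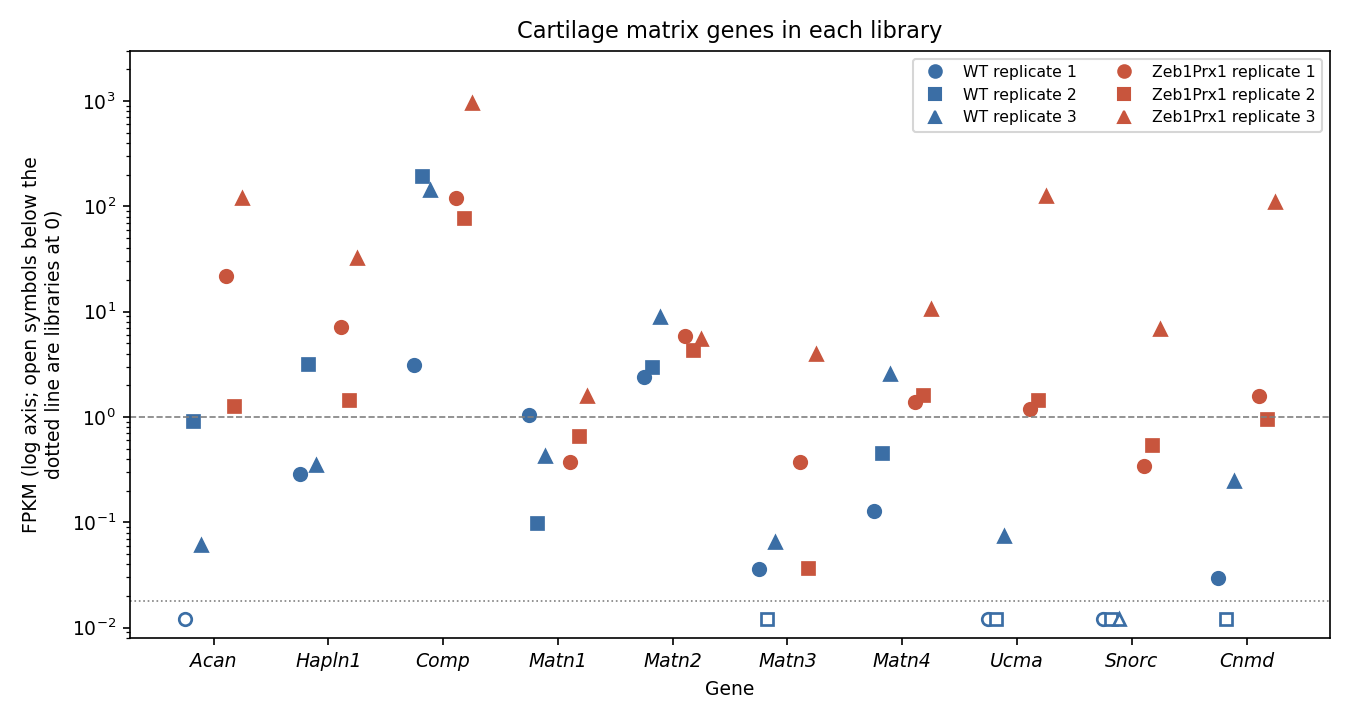
FPKM of the 10 genes (log axis) in each of the 3 WT (blue) and 3 Zeb1Prx1 (red) libraries, with the shape giving the replicate, open symbols marking libraries at 0 and the dashed line at 1 FPKM. Acan, Ucma, Snorc and Cnmd separate by genotype, Comp is high in 5 of 6 libraries, and Zeb1Prx1 replicate 3 (red triangle) is on top for every gene except Matn2.

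Of the 10 genes, 6 reached the filter of 1 FPKM in at least 3 libraries, and Matn1, Matn3, Snorc and Cnmd did not. Acan and Ucma reached it through the Zeb1Prx1 libraries alone, so their difference was partly set by passing. Of all tested genes, 12.6% had every Zeb1Prx1 library above every WT library, as did 2 of the 6 tested members, namely these same genes.

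Aggrecan (Acan, ENSMUSG00000030607, mm10 chromosome 7, 79053483 to 79115099) is the core proteoglycan of the aggregate. It had 0, 0.906 and 0.061 FPKM in WT replicates 1, 2 and 3, from 0, 104 and 7 fragments. In Zeb1Prx1 it had 21.8, 1.28 and 121 FPKM, from 2618, 172 and 13812 fragments. It was nearly silent in WT replicates 1 and 3, and Zeb1Prx1 replicate 2 lay only 1.41-fold above WT replicate 2. Means were 0.322 ± 0.506 and 48.1 ± 64.1 FPKM (SD, n = 3 in each genotype, as for every ± here), a log2 change of 3.87 (SE 1.29, 95% interval 0.82 to 6.92, limma adjusted p = 0.29). The ratio of mean FPKM was 149, and leaving out Zeb1Prx1 replicate 3 made it 35.8, WT replicate 2 made it 1575 and WT replicate 1 made it 99.4.

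Link protein (Hapln1, ENSMUSG00000021613, chromosome 13, 89539796 to 89611652), which locks aggrecan to hyaluronan, was measured at 0.287, 3.18 and 0.353 FPKM in WT, against 7.10, 1.46 and 32.2 FPKM in the mutant. Within each genotype the libraries stood in the same order as for Acan. WT replicate 2 exceeded Zeb1Prx1 replicate 2, so the genotypes overlapped. The log2 change was 2.17 (SE 0.93, 95% interval -0.04 to 4.38, limma adjusted p = 0.333), with means of 1.27 ± 1.65 and 13.6 ± 16.4 FPKM. The 10.7-fold higher mean was 3.35-fold without Zeb1Prx1 replicate 3 and 42.5-fold without WT replicate 2.

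Per gene length, Acan exceeded Hapln1 in Zeb1Prx1 replicates 1 and 3, at 3.07 and 3.76 times its FPKM. It was below Hapln1 in Zeb1Prx1 replicate 2, at 0.877 times, and in WT replicates 2 and 3, at 0.284 and 0.173 times.

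Ucma (ENSMUSG00000026668, chromosome 2, 4976122 to 4985748) encodes a small secreted protein of the upper growth plate that carries vitamin K-dependent gamma-carboxyglutamate. It had 0, 0 and 0.0737 FPKM in WT, where the last value was 1 fragment. The Zeb1Prx1 libraries had 1.20, 1.44 and 124 FPKM, from 17, 23 and 1673 fragments. Zeb1Prx1 replicates 1 and 2 were close together and low, and replicate 3 held 97.9% of the mutant sum. Per assigned fragment the ratio was 1634 (95% counting interval 293 to 64565), or 55.6 without Zeb1Prx1 replicate 3. Without WT replicate 3 the WT group has no fragment, and the ratio was 377 with WT set to the 3 fragments that a count of 0 allows there. The log2 change was 3.10 (SE 1.46, 95% interval -0.36 to 6.55, limma adjusted p = 0.357), and 1.18 without Zeb1Prx1 replicate 3 when the tested genes were kept.

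Chondromodulin (Cnmd, ENSMUSG00000022025, chromosome 14, 79637690 to 79662170) is a membrane-anchored inhibitor of blood vessel growth that keeps cartilage avascular. It had 0.0296, 0 and 0.247 FPKM in WT, from 1, 0 and 7 fragments. In Zeb1Prx1 it had 1.59, 0.963 and 110 FPKM, from 47, 32 and 3098 fragments. As for Ucma, nearly the whole mutant sum (97.7%) lay in replicate 3. The fragment ratio was 379 (95% counting interval 192 to 878), 13.7 without Zeb1Prx1 replicate 3 and 2096 without WT replicate 3. The exact two-sided permutation test on FPKM gave p = 0.1, the smallest that 3 against 3 libraries allow.

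Snorc (ENSMUSG00000026258, chromosome 1, 87470271 to 87475482), a transmembrane proteoglycan of chondrocytes, was at 0 fragments in all WT libraries, which allows up to 0.227 to 0.271 FPKM per library. In Zeb1Prx1 it had 0.345, 0.538 and 6.80 FPKM, from 4, 7 and 75 fragments. It was the only member without a fragment in any WT library, and its first 2 mutant values rest on few fragments. With libraries summed and WT set to the 3 fragments that 0 allows in the group, the ratio was 27.3, and 5.09 without Zeb1Prx1 replicate 3. It took the mutant fragments as counted, so it is not a full lower bound. This ratio was 17.3, 18.5 and 18.9 without WT replicate 1, 2 and 3. The exact permutation p was 0.1.

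Matrilins are adaptor proteins built from von Willebrand factor A domains; Matn1 and Matn3 are largely cartilage-restricted, and Matn2 and Matn4 are made in more tissues. Matn3 (ENSMUSG00000020583, chromosome 12, 8947929 to 8972028) was at 0.0363, 0 and 0.0648 FPKM in WT replicates 1, 2 and 3 and at 0.372, 0.0368 and 3.98 in Zeb1Prx1. Its fragments numbered 2, 0 and 3 in WT and 18, 2 and 183 in the mutant, so Zeb1Prx1 replicate 2 was at the WT level. The fragment ratio was 38.7 (95% counting interval 16.3 to 121), and the exact permutation p on FPKM was 0.2. Without Zeb1Prx1 replicate 3 the ratio of mean FPKM was 6.06 in place of 43.4, and without WT replicate 3 it was 80.6.

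Matn1 (ENSMUSG00000040533, chromosome 4, 130944385 to 130955475) stood at 1.04, 0.0975 and 0.423 FPKM in WT cells, against 0.373, 0.665 and 1.57 FPKM in mutant cells, from 3 to 48 fragments per library. The ranges overlapped almost entirely, with WT replicate 1 second only to Zeb1Prx1 replicate 3. Means were 0.519 ± 0.477 and 0.870 ± 0.624 FPKM (exact permutation p = 0.6). Without Zeb1Prx1 replicate 3, the ratio of means was 1, down from 1.67, and without WT replicate 1 it was 3.34.

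Matn4 (ENSMUSG00000016995, chromosome 2, 164389393 to 164405160) was at 0.127, 0.453 and 2.54 FPKM in WT cells and at 1.40, 1.63 and 10.5 in mutant cells. WT replicate 3 lay above Zeb1Prx1 replicates 1 and 2, so the genotypes overlapped. The log2 change was 1.21 (SE 0.69, 95% interval -0.41 to 2.84, limma adjusted p = 0.403). The fold of means, 4.33, was 1.45 without Zeb1Prx1 replicate 3 and 15.6 without WT replicate 3. Its exons share 149 bases with Rbpjl on the opposite strand, and the sources used here do not say whether counting used strand. Rbpjl had fewer fragments than Matn4 in every library.

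Matn2 (ENSMUSG00000022324, chromosome 15, 34306677 to 34436273) was the one matrilin present at 2.41 FPKM or more in every library. WT replicates 1, 2 and 3 had 2.41, 3 and 8.99 FPKM and Zeb1Prx1 replicates 5.86, 4.30 and 5.51, with the highest value in WT replicate 3. Its log2 change was 0.27 (SE 0.39, 95% interval -0.67 to 1.20, limma adjusted p = 0.747) and -0.03 without WT replicate 1. Its share of the summed matrilin FPKM was 64.8% to 84.5% in 5 libraries and 25.6% in Zeb1Prx1 replicate 3, where Matn4 was the most abundant matrilin.

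COMP (Comp, ENSMUSG00000031849, chromosome 8, 70373558 to 70382066) is a pentameric thrombospondin that binds collagen fibrils and is made in tendon and ligament as well as cartilage. It was the most abundant of the 10 genes per length in every library, reaching 3.13, 195 and 144 FPKM in WT cells against 121, 78.3 and 965 FPKM in mutant cells. WT replicate 1 was far below the other WT libraries, and WT replicates 2 and 3 were above Zeb1Prx1 replicates 1 and 2. The means were 114 ± 99.1 and 388 ± 500 FPKM, a log2 change of 2.11 (SE 1.60, 95% interval -1.68 to 5.90, limma adjusted p = 0.514). Without Zeb1Prx1 replicate 3 the mutant mean was 0.878 times the WT mean, down from 3.41 times, and without WT replicate 1 the log2 change was 0.33.

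Some other connective tissue transcripts, but not all, were low together with Comp in WT replicate 1. The 8 tendon and ligament markers summed to 187 FPKM there, to 1017 and 545 in WT replicates 2 and 3, and to 806, 466 and 738 in Zeb1Prx1. Fibromodulin (Fmod), with 77.1, 879 and 262 FPKM in WT, carried that order: the other 7 markers summed to 110, 138 and 283 in WT and to 106, 142 and 65.6 in Zeb1Prx1. Of the 8, 4 were lowest in WT replicate 1 among the WT libraries and 2 were highest there, the matrix glycoprotein gene Tnc and the transcription factor gene Egr2. Of the 12 stromal markers, 8 were lowest in WT replicate 1 and 1 was highest there. The 15 macrophage markers gave a similar count, with 9 lowest and 1 highest there, so it is not particular to connective tissue. The share over all genes was not counted. Decorin (Dcn), a collagen-binding proteoglycan, had 3.30, 204 and 30.2 FPKM in WT, and its relative Prelp 8.24, 443 and 64.2; both are picked here with their values known. Tenomodulin (Tnmd), the tendon relative of chondromodulin, followed another order, with 8.92, 4.23 and 72.6 in WT and 2.12, 32.6 and 3.48 in Zeb1Prx1. The part of these differences in the Comp values was not tested.

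**Figure D2:**
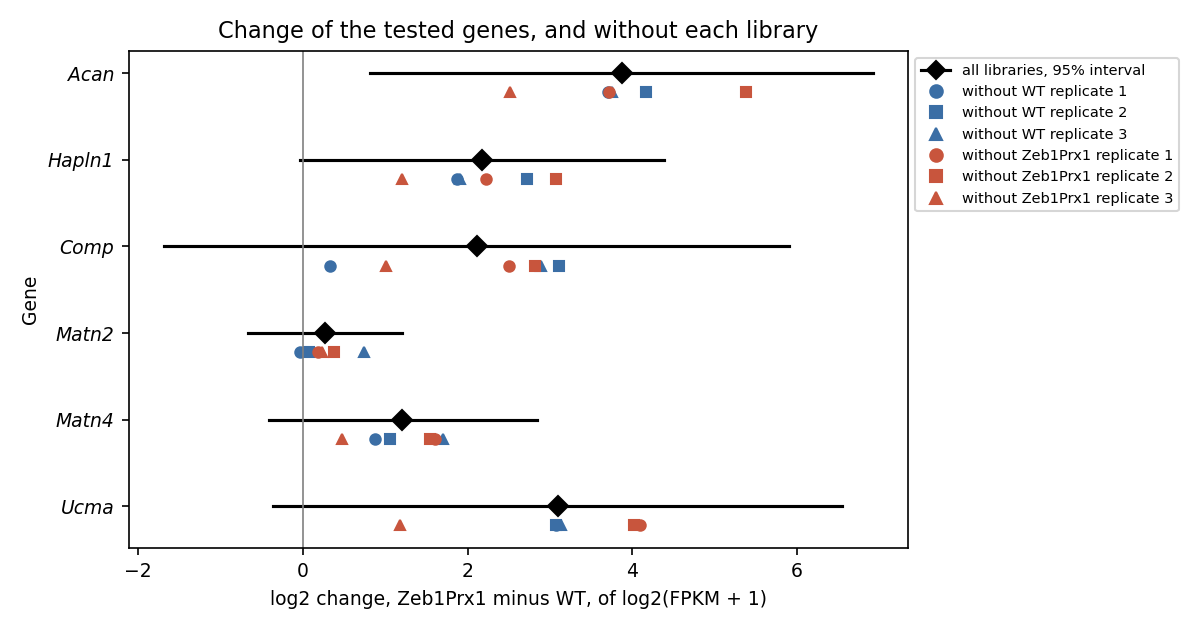
Log2 change (Zeb1Prx1 minus WT, log2(FPKM + 1)) of the 6 tested genes, with diamonds and bars for all 6 libraries and their 95% intervals, and coloured symbols for fits without 1 library. The interval lies above 0 for Acan alone, and leaving out Zeb1Prx1 replicate 3 or WT replicate 1 moves Comp to 1.01 or 0.33.

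The 3 mutant libraries differed from each other in the mix of these genes, not only in their level. Between Zeb1Prx1 replicates 1 and 2, Acan, Matn3 and Hapln1 were 17.1, 10.1 and 4.87 times higher in replicate 1. Ucma, Snorc, Matn4 and Matn1 were 0.829, 0.641, 0.856 and 0.561 times as high there, and Comp, Cnmd and Matn2 were 1.55, 1.65 and 1.36 times as high. From replicate 1 to replicate 3 the ratio was 104 for Ucma, 69.4 for Cnmd and 19.7 for Snorc, but 5.55 for Acan and 4.54 for Hapln1. With 1 library behind each number, these ratios describe the libraries and have no test. Some rest on few fragments in replicates 1 and 2: Snorc on 4 and 7, Matn3 on 18 and 2, Ucma on 17 and 23, and Matn1 on 12 and 24. In rank among all genes of its library, Acan was 2266 in replicate 1 and 355 in replicate 3, while Ucma was 12034 and 344.

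**Figure D3:**
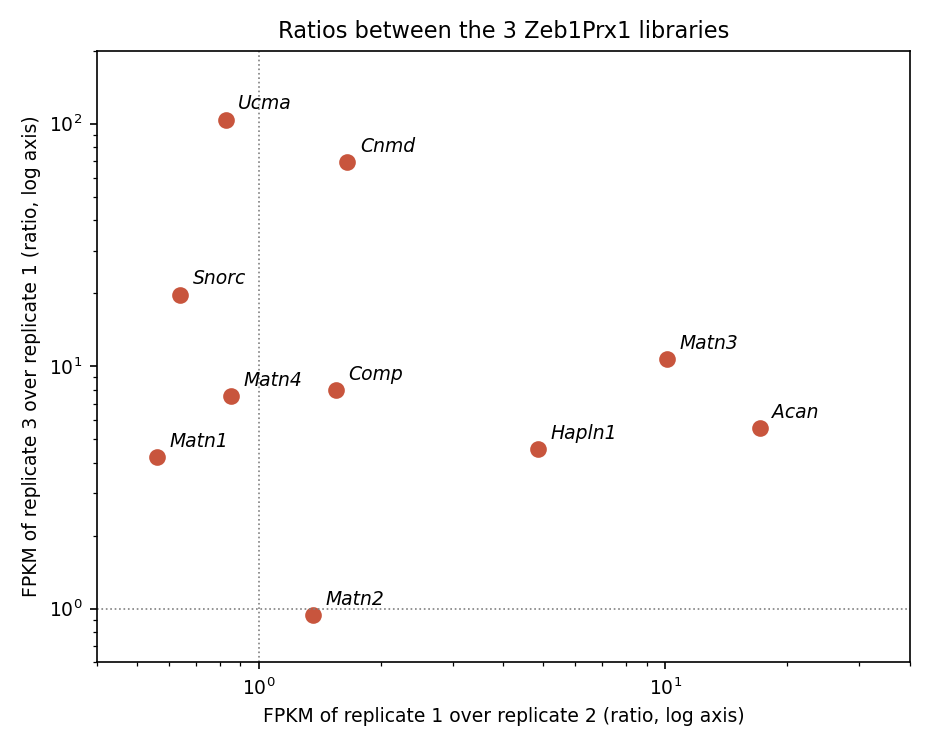
Ratios of FPKM between Zeb1Prx1 libraries for the 10 genes, replicate 1 over 2 on the horizontal and replicate 3 over 1 on the vertical log axis. Acan, Matn3 and Hapln1 lie to the right (4.87 to 17.1), Ucma and Cnmd at the top (104 and 69.4), and Matn2 near 1 on the vertical axis. Matn3, Snorc, Ucma and Matn1 rest on 2 to 24 fragments per library in replicates 1 and 2.

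Promoter sequence is shown for 4 members because 3 of them (Acan, Ucma, Cnmd) were low in every WT library and higher in each mutant library, and the fourth holds the motif that Zeb1 binds. RefSeq windows on GRCm38.p6 existed for 7 of the 10 genes, 8 windows in all, and were read here as the 250 bases before the start; Comp, Matn2 and Snorc had no entry. In the first 3 lines capitals mark CG dinucleotides. In the Matn1 line they mark the match to CAGGTG, an E-box recognised by Zeb1, read on either strand.
Acan promoter, chr7:79052976-79053225, plus strand: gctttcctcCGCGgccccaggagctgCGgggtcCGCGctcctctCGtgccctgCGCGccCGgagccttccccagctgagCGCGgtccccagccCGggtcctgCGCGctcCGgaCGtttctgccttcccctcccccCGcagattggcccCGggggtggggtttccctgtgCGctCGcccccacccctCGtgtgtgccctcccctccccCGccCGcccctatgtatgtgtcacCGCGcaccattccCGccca
Ucma promoter, chr2:4975872-4976121, plus strand: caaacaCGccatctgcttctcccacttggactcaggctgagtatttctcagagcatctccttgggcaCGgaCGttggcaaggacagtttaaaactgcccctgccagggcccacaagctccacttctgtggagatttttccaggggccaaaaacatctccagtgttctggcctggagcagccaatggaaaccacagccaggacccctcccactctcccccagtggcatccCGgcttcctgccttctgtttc
Cnmd promoter, chr14:79662184-79662433, minus strand: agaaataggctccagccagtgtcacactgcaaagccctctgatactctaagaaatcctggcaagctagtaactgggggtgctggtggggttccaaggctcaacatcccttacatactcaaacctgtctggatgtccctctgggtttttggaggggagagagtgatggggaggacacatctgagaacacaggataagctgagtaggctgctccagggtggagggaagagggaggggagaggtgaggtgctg
Matn1 promoter, chr4:130944135-130944384, plus strand: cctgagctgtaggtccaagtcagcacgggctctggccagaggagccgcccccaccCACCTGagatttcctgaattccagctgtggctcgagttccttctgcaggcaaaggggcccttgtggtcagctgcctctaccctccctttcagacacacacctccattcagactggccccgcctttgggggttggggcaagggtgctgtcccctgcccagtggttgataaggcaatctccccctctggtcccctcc

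These promoters differed in base composition. Acan had 26 CG dinucleotides and 74.4% GC, Ucma 4 and 56.4%, and Cnmd 0 and 54.0%, where all 32851 RefSeq windows had medians of 6 and 52.4%. CAGGTG was found on either strand in 1 of the 8 member windows, that of Matn1, 195 bases before the start, and in 17.2% of all windows. ACAAAG and ACAATG, cores of Sox motifs that share their first 4 letters, were found in 0 of 8, and in 16.5% and 10.7% of all windows. The letters say nothing of binding, and Sox-bound enhancers of cartilage genes can lie far outside such windows.

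Genes that act with aggrecan in the hyaluronan aggregate gave no call. Of 10 listed partners 5 were tested, 0 were called, and 0 had an unadjusted p under 0.05; the median log2 change was 0.12, against 0.02 for all tested genes. Versican (Vcan), the aggrecan relative of fibroblasts, had means of 21.4 ± 6.36 (WT) and 16.8 ± 5.22 FPKM (Zeb1Prx1), and the hyaluronan receptor Cd44 64.3 ± 29.8 and 43.3 ± 6.29. Brevican (Bcan) was low, with 0.810 ± 0.397 and 1.55 ± 0.372. It was the 1 of the 10 that was higher without overlap, against 8.01% of genes above 0. Has1 of this list, picked with its values known, was the 1 lower without overlap, against 8.19%. Its means were 0.768 ± 0.224 and 0.237 ± 0.164. Hapln4, a link protein relative, had 2.04 ± 1.08 and 3.34 ± 1.49.

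The collagens and Sox factors of cartilage gave no call, with every tested log2 change above 0. Of 11 listed, 6 were tested and 0 called, and the median log2 change was 1.75. At an unadjusted p under 0.05, 5 of these 6 were higher, against 8.15% of all tested genes, and 0 were lower, against 6.98%. Of these 5, Col11a2 passed the filter through the Zeb1Prx1 libraries alone, so its count was partly set by passing. All 11 were highest in Zeb1Prx1 replicate 3, against 18.9% of genes above 0, and 6 were higher without overlap, against 8.01%. Collagen II (Col2a1), the main cartilage fibril, had means of 3.62 ± 2.18 and 539 ± 573 FPKM, and Col11a1, which nucleates that fibril, 24.3 ± 4.21 and 106 ± 64.8. The ratio of means was 149 for Col2a1 and 4.36 for Col11a1, and 61.2 and 2.90 without Zeb1Prx1 replicate 3. Sox9, the main transcription factor of chondrocytes, was at 4.19, 4.33 and 5.45 FPKM in WT libraries and at 15.0, 6.27 and 40.7 in mutant libraries, the same order of mutant libraries as Acan. Its ratio of means was 4.44, and 2.29 without Zeb1Prx1 replicate 3. This pattern was already known from these data and is not independent support.

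Among 21 other cartilage and fibrous matrix genes, 13 were tested, 0 were called, and the median log2 change was 0.06. At an unadjusted p under 0.05, 1 was higher, against 8.15% of all tested genes, and 0 were lower, against 6.98%. The higher gene was Scrg1, a small secreted protein of chondrogenesis, with 0, 5.02 and 1.02 FPKM in WT libraries against 9.69, 7.37 and 217. Its ratio of means, 38.8, was 4.24 without Zeb1Prx1 replicate 3 and 153 without WT replicate 2. Fmod, a collagen-binding proteoglycan, had 406 ± 420 and 565 ± 209, and Crtap, which helps hydroxylate collagen, 85.5 ± 14.2 and 126 ± 40.4. Otor, a small secreted cartilage protein, had 0.435 ± 0.694 and 0.844 ± 0.452.

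Enzymes that build and cut the aggrecan chains gave no call either. Of 25 listed genes of chondroitin and keratan sulfate assembly, 24 were found by name, 22 were tested and 0 called, with a median log2 change of 0.17. At an unadjusted p under 0.05, 0 were higher, against 8.15% of all tested genes, and 1 was lower, against 6.98%. The latter was the xylosyltransferase Xylt2, with 46.7 ± 3.85 against 28.3 ± 6.37 FPKM, while the sulfate-donor synthase Papss2 had 3.94 ± 1.04 against 14.0 ± 12.4. The ratio of Papss2 means, 3.55, was 1.78 without Zeb1Prx1 replicate 3. The sulfotransferases Chst1 and Chst7 had 4.72 ± 1.98 against 2.44 ± 1.15 and 4.78 ± 0.420 against 3.41 ± 0.874. Of 13 matrix-cleaving enzymes and their inhibitors 9 were tested and 0 called, with a median of -0.01. At an unadjusted p under 0.05, 2 of the 9 were higher and 0 lower, beside the same shares of all tested genes. The 2 were the collagenase gene Mmp13 (146 ± 111 against 384 ± 41.2 FPKM) and the inhibitor gene Timp1 (296 ± 161 against 645 ± 289). The Mmp13 ratio, 2.63, was 4.65 without WT replicate 2. Timp3, an inhibitor of aggrecanases, had 62.3 ± 33.4 against 170 ± 109, and the protease gene Adamts12 1.43 ± 0.621 against 0.585 ± 0.464.

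Marker levels of other cells moved with some of these values. The 12 osteoblast markers, 0 of them at 0 in any library, summed to 2177 to 2765 FPKM in WT and to 5019, 2675 and 4062 in Zeb1Prx1. Col1a1, also among the stromal markers, and Sparc made up most of each sum, with 2069 and 1927 in Zeb1Prx1 replicate 3. All 10 tested had a log2 change above 0, and 4 of the 12 were higher without overlap, against 8.01% of genes above 0. Among the mutant libraries, 8 of the 12 were lowest in replicate 3, against 20.8% of genes above 0, and 2 were highest there, Sparc and Omd. The osteoblast factor gene Sp7, among the 8, had 12.2, 7.20 and 0.944 FPKM in Zeb1Prx1 replicates 1, 2 and 3, the mineralisation enzyme gene Alpl 75.0, 52.6 and 7.92, and the parathyroid hormone receptor gene Pth1r 22.6, 16.3 and 2.98. Collagen X (Col10a1), the marker of hypertrophic cartilage, was 1.47, 1.49 and 3.39, and Ihh of the prehypertrophic zone stayed between 0.0214 and 0.163 in all 6 libraries. The 8 hypertrophic cartilage markers, with Col10a1, Ihh, Pth1r and Alpl among them, did not move together. Mmp13 and Panx3 were the 2 higher without overlap, against 8.01% of genes above 0, and Mef2c the 1 lower, against 8.19%. The median log2 change of the 6 tested was 0.70. Of the 12 stromal markers, 5 were highest of all 6 libraries in Zeb1Prx1 replicate 3, against 18.9% of genes above 0. At an unadjusted p under 0.05 limma counted 1 of the 11 tested as higher, against 8.15% of all tested genes. It counted 3 as lower, against 6.98%. The proteoglycan gene Lum was among the 5, with 90.4, 31.5 and 695 in Zeb1Prx1, and Dcn with 47.1, 31.1 and 576, while the receptor gene Pdgfrb had 30.4, 20.9 and 19.9. Sums over the 10 epithelial markers ran from 1.12 to 5.32 FPKM across WT libraries and were 22.0, 19.1 and 58.7 for Zeb1Prx1. The largest part of each Zeb1Prx1 sum was Spint2, at 10.7, 10.2 and 35.2. Most of each WT sum was Spint1, at 4.58, 1.67 and 0.965. Of the 10, 6 were higher without overlap, against 8.01% of genes above 0, with Epcam, Krt8 and Spint2 among them. Spint1, Krt5, Krt14 and Cldn4 overlapped between genotypes. Epcam and Krt8 were at 0 in every WT library, and Epcam was at no more than 0.353 in Zeb1Prx1. Of the 15 macrophage markers, 13 had a log2 change below 0 and 6 were lower without overlap, against 8.19% of genes above 0. Their median log2 change was -0.37, against 0.02 for all tested genes. They summed to 10812, 21848 and 12767 in Zeb1Prx1 replicates 1, 2 and 3, against 13136 to 15973 in WT. By this sum Zeb1Prx1 replicate 2 was the highest of the 6 libraries and replicate 1 the lowest. Most of each sum was Lyz2, at 8118, 10490 and 10017 in WT and 7034, 16368 and 9156 in Zeb1Prx1. Single markers ordered the libraries differently. Tyrobp was also highest in Zeb1Prx1 replicate 2, at 558, while Adgre1 was at 119 there, against 215 to 250 in WT. The 6 endothelial markers summed to 3.02, 3.07 and 2.64 in WT and to 1.99, 1.70 and 1.27 in Zeb1Prx1, without overlap. Vwf, the 1 tested, made up most of each sum. It had 2.22, 2.64 and 1.76 FPKM in WT libraries against 1.48, 1.26 and 0.905 in mutant libraries. Vwf was lower without overlap, against 8.19% of genes above 0. Its limma unadjusted p was under 0.05, where 6.98% of all tested genes were lower. The other endothelial markers, each at 0.647 or less, overlapped between genotypes. The part of any of these in the cartilage values was not tested.

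**Figure D4:**
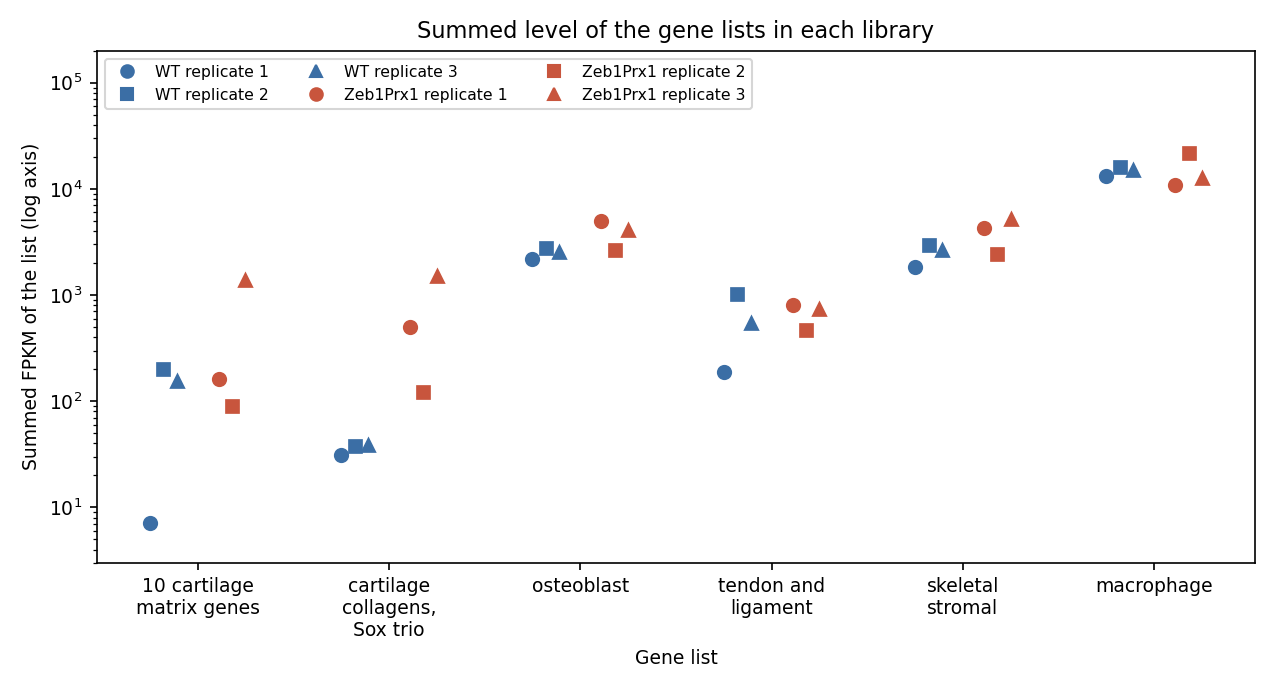
Summed FPKM (log axis) of the 10 cartilage matrix genes and 5 other lists in each WT (blue) and Zeb1Prx1 (red) library, with the shape giving the replicate. The matrix gene sum runs from 7.05 in WT replicate 1 to 1381 in Zeb1Prx1 replicate 3, while the macrophage sum stays between 10812 and 21848. Most of each macrophage sum is Lyz2, and most of each osteoblast sum is Col1a1 and Sparc.

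The tested genes outside the 10 whose profile over the 6 libraries was most like that of Acan were Rbp4, Col11a2, Scrg1, Smoc1 and Slpi. Likeness was the root mean square difference of log2(FPKM + 1) after centring each gene, with 2.59 as the median of all tested genes. It was 0.80 for the retinol carrier Rbp4 (0.0842, 0.451 and 0.351 FPKM in WT libraries, 11.7, 4.62 and 55.9 in mutant ones) and 0.89 for Col11a2. Scrg1, the matricellular Smoc1 and the protease inhibitor Slpi had 1.01, 1.02 and 1.03. Of the other 5 tested members, Hapln1 (1.08) and Ucma (1.25) ranked 8 and 14 by this measure, and Matn4, Comp and Matn2 ranked 105, 163 and 2505.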

How the data were processed

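RNA-seq libraries of 3 WT and 3 Zeb1Prx1 samples were given as FPKM in 1 table, 1 column per library. FPKM were computed by the authors on mm10, per the submitters' processing notes; the sources used here name no aligner, counting tool or strand setting. Multiplied by the deposited gene length, 127408 of 127408 non-zero FPKM values fell on whole steps (relative tolerance 1e-06). This gave fragments, and each step size implied a library total of 0.973 to 1.04 times their sum. All 10 genes had the coordinates and exon length of GENCODE M21.

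Genes with at least 1 FPKM in at least 3 of 6 libraries (12534) were tested with limma 3.58.1 (R 4.3.3), with the prior variance as a function of mean log2(FPKM + 1), all genes together and a Benjamini-Hochberg threshold 0.05. Fold changes on this scale understate those of low genes. The test was checked on simulated counts with the same spread setting for every gene, smaller than the spread of Acan or Ucma in Zeb1Prx1. That check does not cover genes that vary so much between libraries. Members under the filter had exact two-sided permutation tests over libraries. Ratios of fragments use exact conditional 95% intervals, and a count of 0 allows 3 fragments. Both cover counting error only, and ratios to 3 WT fragments take the mutant count as exact. The members and lists were chosen with earlier results of these data known. All 10 members, Zeb1, the 5 genes most like Acan and up to 4 genes per list with the smallest unadjusted p were named by rule; further genes are marked as chosen after their values were seen, or are list markers. The labels name no batch. Alternatives were pseudocounts, filters, scalings, the replicate block, no trend, library weights, voom and leaving out each library.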

Additional observations from a re-analysis of the deposited data

How the results depend on the processing

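The member tests gave the same direction and the same side of the threshold in 122 of 125 alternative fits. These fits are not independent. They include median-of-ratios fits equal to the main fit. Most fits without 1 library were counted both with the filter applied again and with the tested genes kept. Sizes still varied, with Comp at 0.33 to 3.11. Acan passed with library weights (log2 change 5.78, limma adjusted p = 0.0439), which called 447 genes in all and gave Zeb1Prx1 replicate 3 a weight of 2.82 and replicate 2 one of 0.226; its adjusted p over alternatives ran from 0.0439 to 0.543. Matn2 was -0.03 without WT replicate 1, with the filter applied again or the tested genes kept. Matn1 means differed by 0.35 FPKM, and by -4.96e-05 (without Zeb1Prx1 replicate 3) to 0.609 with 1 library left out. Leaving out 1 library gave 0 to 2 called genes: 1 without Zeb1Prx1 replicate 2 and, with the tested genes kept, 2 without it and 1 without Zeb1Prx1 replicate 3; the cause was not tested. The count of members whose Zeb1Prx1 libraries all exceeded WT was 4 to 7 (7 without WT replicate 3, where 11.0% of genes above 0 did so; Acan, Ucma, Snorc and Cnmd were in every count); leaving out libraries with the tested genes kept, and these counts, were chosen after seeing the data. The corresponding count among members under the filter was 2 to 3.

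Acan and Ucma were under the filter once any 1 Zeb1Prx1 library was left out, so their values there come from fits with the tested genes kept. Deviations of same-numbered libraries correlated at 0.0289, -0.413 and 0.0798, and those of other pairs at -0.481 to 0.457. With so few libraries, these values cannot settle whether replicate numbers pair them. With the replicate block, limma called 0 genes and 1347 of 12534 had an unadjusted p under 0.05 (1897 without it), with member adjusted p of 0.401 to 0.74. At that unadjusted p it counted 3 of the 6 tested members, against 1 without the block. An equal FPKM sum moved the median log2 change of all genes from 0.02 to -0.12 and reversed no member; median-of-ratios factors were equal in all libraries. Without the filter, Snorc, Cnmd, Matn3 and Matn1 had log2 changes of 1.34, 2.93, 0.89 and 0.30 (limma adjusted p = 0.536, 0.549, 0.618 and 0.713). Depth limits Snorc, Matn3 and the WT values of Ucma and Cnmd, which rest on 0 to 7 fragments per WT library.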
